A study of Mus musculus with 4 samples.

Results

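Strong ATAC-seq peaks called in wild-type (WT) mouse osteoblasts with no counterpart in osteoblasts lacking the TET enzymes (TCKO) numbered 22831 of the 138406 strong WT peaks on chromosomes 1 to 19, a share of 16.5%. They were selected on the deposited peak lists themselves. A member is a distinct WT interval whose highest peak-caller score, the −log10 of the q value, is at least 5 and which does not share 1 bp with any TCKO interval, however weak. The autosomes held 225515 WT intervals in all, and the other 115575 strong ones overlapped a TCKO interval and are called shared below. Since both lists chose the members, their lower TCKO values are a description of the choice and were not tested.

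The series compared the chromatin of primary osteoblasts from 3-day-old C57BL/6 mice, either wild type or Prx1-Cre with Tet1fl/fl Tet2fl/fl Tet3fl/fl alleles (the TCKO). Prx1-Cre is active in limb bud and part of the skull mesenchyme, so the deletion precedes the osteoblast fate and reaches other cells of that lineage. The labels list 2 samples per genotype while the protocol text gives 3 repeats, and the deposited lists and counts are merged into 1 column per genotype. No value therefore has a replicate error, no test was possible, and every comparison below is between one merged WT and one merged TCKO measurement. The protocol text names an RNA library kit, whereas the study's methods describe transposition with Tn5. The count table held 56898657 reads in WT and 34608167 in TCKO over 255864 rows. Among the gene lists, 26 of 31 autosomal osteoblast genes had a strong WT peak at the promoter, against 5 of 18 skeletal muscle, 7 of 15 endothelial and 8 of 21 macrophage and osteoclast genes, but adipocyte genes with 13 of 16 and neuronal genes with 22 of 27 were close to the osteoblast list. Fewer open cells and less open chromatin per cell cannot be told apart in such bulk samples.

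ATAC-seq cuts DNA with a transposase wherever chromatin is accessible, so a peak marks a promoter, enhancer or insulator that was open in enough cells. TET enzymes oxidise 5-methylcytosine at CpG sites, the first step towards removing the methyl mark, and are known for keeping enhancers unmethylated. In osteoblasts RUNX2, which binds the Runt sequence, opens and activates the bone programme, AP-1 factors occupy many enhancers of mesenchymal cells, and CTCF sits at insulators and is sensitive to methylation at part of its sites.

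The first group of sequences is shown because these are the members of at most 300 bp among those with the strongest score or the lowest TCKO to WT ratio. They are the plus strand of GRCm38 (RefSeq assembly), 5′ to 3′, with each CpG in capitals, and lie between genes 52029 bp from the start of Raet1d, at the promoter of Epb41l2 and in an intron of Tacc2.

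chr10:22413786-22414060: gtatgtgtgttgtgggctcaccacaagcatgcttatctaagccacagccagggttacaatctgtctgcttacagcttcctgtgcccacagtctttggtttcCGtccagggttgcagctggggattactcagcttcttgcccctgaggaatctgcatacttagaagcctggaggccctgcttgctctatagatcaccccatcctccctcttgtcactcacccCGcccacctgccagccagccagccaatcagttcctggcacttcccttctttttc
chr10:25432421-25432697: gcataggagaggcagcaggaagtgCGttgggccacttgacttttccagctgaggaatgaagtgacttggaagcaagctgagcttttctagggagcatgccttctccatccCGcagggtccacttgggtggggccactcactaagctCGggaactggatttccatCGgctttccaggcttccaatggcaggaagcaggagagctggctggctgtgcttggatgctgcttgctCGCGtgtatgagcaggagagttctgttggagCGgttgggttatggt
chr7:130678469-130678689: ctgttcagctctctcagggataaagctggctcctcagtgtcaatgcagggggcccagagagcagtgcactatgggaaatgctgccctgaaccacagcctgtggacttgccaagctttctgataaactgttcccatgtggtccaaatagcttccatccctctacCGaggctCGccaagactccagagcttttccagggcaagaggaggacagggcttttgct

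The first held 269 WT and 7 TCKO counts and 2 CpG. The Epb41l2 promoter, whose gene encodes a protein of the membrane skeleton, held 244 and 15 counts and 7 CpG. The Tacc2 member held 214 and 26 counts and 2 CpG.

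The second group shows members that carry a consensus sequence, namely the 2 strongest of at most 300 bp with the Runt consensus (TGTGGTT on either strand) and the strongest with an NFI palindrome. Capitals mark the match, and the strand and build are as above. They lie in introns of Cux2 and Mtap and, for the NFI palindrome, in a desert 482167 bp from the start of A830018L16Rik.

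chr5:121959780-121960026: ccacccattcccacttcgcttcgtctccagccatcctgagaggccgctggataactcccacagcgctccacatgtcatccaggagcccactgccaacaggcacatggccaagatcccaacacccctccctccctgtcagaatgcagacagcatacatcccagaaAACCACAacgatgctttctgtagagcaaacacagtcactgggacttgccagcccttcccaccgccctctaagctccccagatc
chr4:89162586-89162783: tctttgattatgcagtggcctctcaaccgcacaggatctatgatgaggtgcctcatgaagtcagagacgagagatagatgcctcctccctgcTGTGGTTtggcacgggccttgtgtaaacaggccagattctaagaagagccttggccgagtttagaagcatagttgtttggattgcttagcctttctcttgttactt
chr1:12000702-12000973: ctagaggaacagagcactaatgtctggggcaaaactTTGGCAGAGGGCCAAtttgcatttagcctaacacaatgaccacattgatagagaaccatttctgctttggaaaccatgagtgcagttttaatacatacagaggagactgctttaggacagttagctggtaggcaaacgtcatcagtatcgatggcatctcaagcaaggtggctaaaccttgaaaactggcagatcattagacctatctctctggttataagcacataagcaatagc

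The Cux2 intron member held 191 WT and 48 TCKO counts, and the Mtap intron member 117 and 49. The NFI member held 81 and 25 counts. A match is a description of the letters and not a measured binding site.

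The members were the small end of the strong peaks. Their median −log10 q was 6.90 against 15.4 in shared peaks, their median width 200 bp against 391, and 14.8% against 40.4% had more than one summit. At the summit the median member piled up 18 fragments over a local background of 2.76, while the median shared peak piled up 30 over 3.49. The share of strong WT peaks that were members was 45.1% (95% Wilson interval 44.5 to 45.7) at a −log10 q of 5 to 7, 27.9% (27.4 to 28.5) at 7 to 10, 12.1% (11.7 to 12.5) at 10 to 15 and 3.55% (3.28 to 3.84) at 15 to 20. These intervals cover counting error only, and regions are not replicates of a genotype. Above that, members were 0.682% of 20377 peaks at 20 to 30 and 12 of 11410 peaks at 30 to 40. From 40 to 60 there were 0 of 9311, with a Wilson interval up to 0.0412%, and at 60 or more there was 1 of 2569. Width showed the same order, from 49.8% members below 150 bp to 0.273% at 1000 bp or more. Thus the broad WT peaks and those with a −log10 q above 20 nearly all had some TCKO peak under them.

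**Figure D1:**
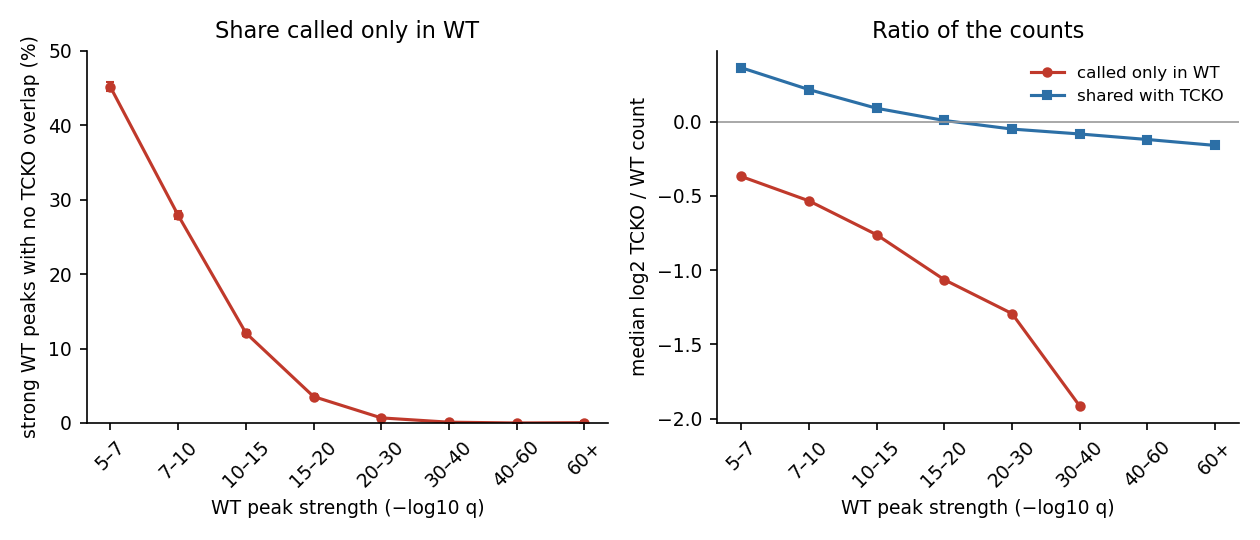
Left, the percentage of strong WT peaks with no TCKO overlap in each class of WT −log10 q, with 95% Wilson intervals. Right, the median log2 TCKO to WT count ratio of the members (circles) and of the shared peaks (squares) in the same classes, for classes with at least 10 peaks. The share falls from 45.1% to under 1% as strength grows, while the ratio of the remaining members falls from −0.37 to −1.92.

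In counts, the median member held 84 WT reads (interquartile range 59 to 127) and 37 TCKO reads (27 to 52), and the median shared peak 221 and 143. The log2 ratio below is that of the TCKO count, multiplied by 1.64 so that both columns have the same total, to the WT count, with 1 count added to each. On this scale the median member stood at −0.50, with 5% of members below −1.43 and 5% above 0.22. Shared peaks had a median of 0.04, weak WT-only peaks (−log10 q under 5) −0.19 and strong TCKO-only peaks 1.57. A member was thus typically a region with somewhat fewer TCKO reads, not an empty one, and 3115 members (13.6%) had a ratio above 0 although no TCKO peak was called there. Another scale that the files allow is the lowest background of the peak caller in each genotype, divided by its shortest interval. With it TCKO counts are multiplied by only 1.08, the median member stood at −1.10 and 0.469% lay above 0. Which of the scalings fits these libraries was not tested.

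**Figure D2:**
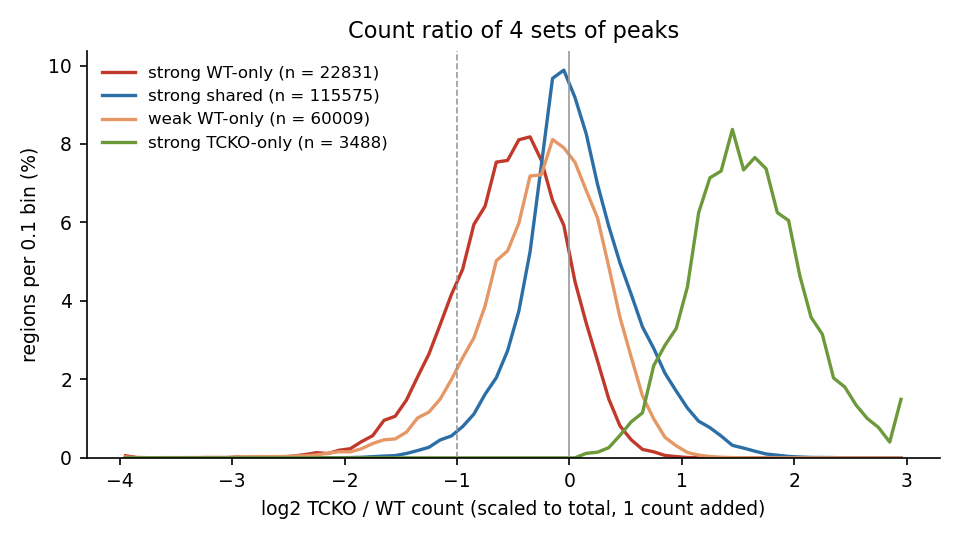
Distribution of the log2 TCKO to WT count ratio (bins of 0.1, counts scaled to the same total, 1 count added) in strong WT-only, strong shared, weak WT-only and strong TCKO-only peaks, as a percentage of each set. The outermost bins also hold all values beyond them, and the dashed line marks a 2-fold lower TCKO count. The members (median −0.50) overlap widely with the shared peaks (median 0.04).

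A 2-fold lower TCKO count, the cutoff used for specific regions in the study, was met by 4041 members (17.7%), beside 4.51% of all rows of the count table, 1.74% of shared peaks and 8.67% of weak WT-only peaks. With the background scaling the count was 13201 members (57.8%) beside 19.9% of all rows. A 4-fold lower count was found in 168 members (0.736%) beside 0.233% of all rows. Taking the counting error of each region into account, the whole 95% interval lay below a 2-fold lower count in 734 members (3.21%) beside 0.654% of all rows. Because the members were selected for the lack of a TCKO call, nothing is read from these excesses.

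Within the members, a stronger WT peak went with a lower ratio. The median ratio was −0.37 at a −log10 q of 5 to 7, −0.53 at 7 to 10, −0.76 at 10 to 15, −1.07 at 15 to 20 and −1.29 at 20 to 30, and the share at least 2-fold lower grew from 11.6% to 77.7% over the same classes. The shared peaks of these classes had medians between 0.36 and −0.05. Part of this follows from the choice itself, since a TCKO peak was called for 20.4% of the table's autosomal rows with 20 to 30 TCKO counts, 62.0% of those with 40 to 50 and 99.6% of those with 150 or more. Members reached 150 TCKO counts in 118 cases. The members just inside the score threshold (−log10 q of 5.0 to 5.1, 597 intervals) had medians of 74 WT and 35 TCKO counts and a ratio of −0.35, and the WT-only intervals just outside it (4.9 to 5.0, 612 intervals) had 71 and 36 counts and −0.30. The 14 members within 10 bp of a TCKO interval are the members whose row of the table is wider and holds that TCKO interval, so their median ratio of 0.30 includes its reads and is not their own. The 14 strong WT intervals that touched a TCKO interval by up to 10 bp had the same median. Most members were farther away. Only 164 (0.718%) lay within 100 bp of a TCKO interval and 21.4% within 1 kb, with 64.1% between 1 and 10 kb and 14.4% beyond, and the median distance was 3166 bp.

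The strongest member stood apart from all others. It is intergenic, at chr10:22058405-22059098, 9327 bp from the start of 4930444G20Rik, and held 781 WT and 28 TCKO counts with a −log10 q of 63.5. Its log2 ratio was −4.06 (95% counting interval −4.63 to −3.54). The next strongest was in an intron of Col11a1, a fibrillar collagen of cartilage, at chr3:114065275-114065933. It carried a Runt consensus in its central 200 bp and held 365 WT and 80 TCKO counts, a log2 ratio of −1.47 (−1.82 to −1.12). An intron of Supt3, the gene that overlaps the start of Runx2, held a member at chr17:45072943-45073540 with 345 and 57 counts and a log2 ratio of −1.87 (−2.28 to −1.48). It is 258445 bp from the nearest annotated start, that of Runx2. An intron of Ddr2, a collagen receptor needed for long bone growth, held the member with most reads of the 10 strongest, 998 WT and 141 TCKO counts, at chr1:170010802-170011539 (log2 ratio −2.10, −2.36 to −1.85). Scrg1, a gene induced in cartilage formation, had an intronic member 1405 bp from its start with 208 and 32 counts. The other members among the 10 strongest lay in introns of Soga1 (563 and 119 counts) and Cmip (388 and 71), 106005 bp from the start of Kctd15 (462 and 35), and at 2 further places of the chromosome 10 region described next.

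That region was noticed for its empty TCKO counts and its bounds were set by them, so it is described without a test. Between chr10:21849354-22492541, 643 kb that hold Sgk1, a serum-induced kinase, and the NKG2D ligand genes H60b, Raet1d and Raet1e, 19 of 45 strong WT peaks were members (42.2%), and 11 of these were at least 4-fold lower. It was delimited as the chain of 4-fold lower members around the strongest one, with gaps of at most 250 kb. Among them 4 had no TCKO count at all, with 83, 85, 78 and 178 WT counts. Against a floor of 3 TCKO counts per region these are at least 16.8, 17.2, 15.8 and 36.1-fold lower. The remaining members of the region had log2 ratios between −1.87 and 0.10. Its 26 shared peaks had a median of 0.21 and ran from −2.20 to 1.38, and 8 of its 50 TCKO intervals had no WT overlap. The H60b promoter was itself a member with 81 WT and 6 TCKO counts (chr10:22273150-22273492), whereas the Sgk1 promoter member had 188 and 62. Over the genome, chromosome 10 held 27 of the 168 members at least 4-fold lower, 13 of the 23 at least 8-fold lower and 4 of the 5 with no TCKO count. Chromosome 7 held 20 of the 168. Of all 22831 members, 1304 were on chromosome 10 and 1232 on chromosome 7. Of the 27 on chromosome 10, 11 were those of this region, whose bounds were set by its low counts.

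**Figure D3:**
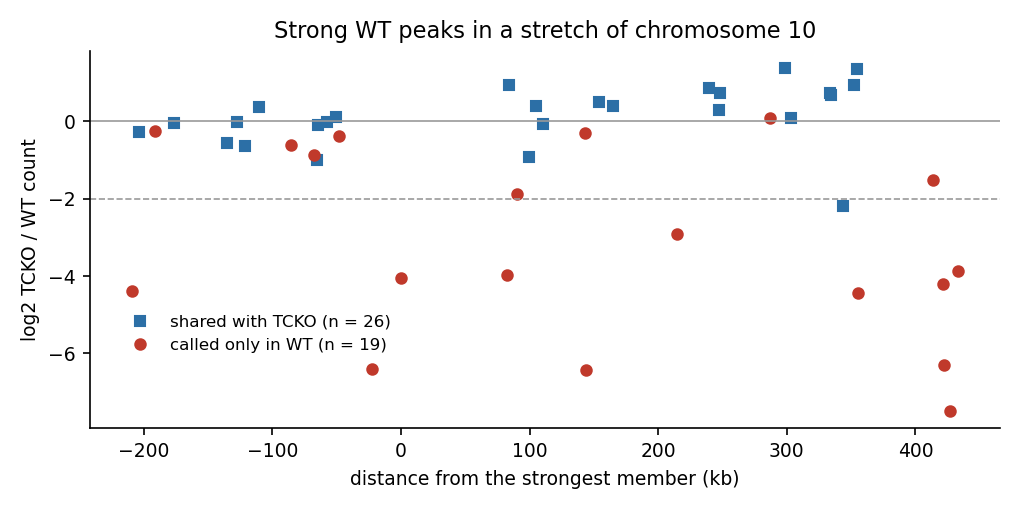
Log2 TCKO to WT count ratio of the 45 strong WT peaks in the chromosome 10 region against their distance in kb from the strongest member. Circles are members and squares shared peaks, and the dashed line marks a 4-fold lower TCKO count. The 11 lowest members lie below the dashed line, and the shared peaks run from −2.20 to 1.38. The 4 lowest points had no TCKO count and their height depends on the 1 count added.

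Elsewhere the lowest ratio among members with at least 200 WT counts was in an intron of Arnt2, a bHLH-PAS transcription factor, at chr7:84380806-84381164, with 325 WT and 6 TCKO counts (log2 ratio −4.91, −6.18 to −3.91). The Epb41l2 promoter printed above followed outside the chromosome 10 region at −3.26 (−4.05 to −2.56), then the Kctd15 neighbour at −2.98, an intron of Nhsl1 (347 and 32 counts) at −2.70 and a site 86709 bp from Sdk2, a cell adhesion gene (208 and 25 counts), at −2.31. The Tacc2 member stood at −2.30. At the other end, the 5 members with the highest ratios among those with 200 WT counts had ratios of 0.15 to 0.33. An intronic member of Prex2 held 317 WT and 243 TCKO counts (0.33, 0.09 to 0.57). Its row of the table is wider than the peak and holds a TCKO interval, so the count is not the member's alone. The Rnpepl1 and Nat14 promoters held 229 and 169, and 254 and 179 counts. An intron of Parp16, with a CTCF match, held 313 and 219 counts, and a site near Cnfn 217 and 147. The intervals of these last 4 all included 0.

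By position the members were distal. Promoters (within 1 kb of an annotated start) made up 4.51% of members (4.25 to 4.79) and 13.9% of shared peaks (13.7 to 14.1), while introns made up 45.9% and 39.1%, exons 4.02% and 3.39%, and intergenic DNA 45.6% and 43.7%. A low promoter share was not particular to the members, as promoters were 4.69% of weak WT-only and 2.12% of strong TCKO-only peaks. Of all strong promoter peaks 6.03% were members, against 18.8% of intronic, 18.95% of exonic and 17.1% of intergenic ones. Promoter peaks are stronger, yet the order held among peaks of like strength. At a −log10 q of 5 to 7 members were 36.7% (34.3 to 39.1) of promoter and 47.4% (46.5 to 48.3) of intronic peaks, and at 10 to 15 they were 6.28% (5.29 to 7.43) and 13.2% (12.6 to 13.8). The 1030 promoter members had a median ratio of −0.36, and the intronic ones −0.52. Promoter members also sat on a higher local background, 4.54 against 2.88 fragments in introns, and whether this bears on their ratio was not tested.

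The sequence of a peak was not used to choose the members. Each peak's central 200 bp was searched on both strands for the AP-1 consensus TGANTCA, Runt TGTGGTT, TEAD GGAATG, homeobox TAATTA, ETS CCGGAA, E-box CAGCTG, SP/KLF GGGCGG, the cAMP response element TGACGTCA, NFY CCAAT, SOX ACAAAG, CTCF and the NFI palindrome. The searches were independent, so one stretch can match more than one of them, such as SP/KLF letters inside a CTCF match. The AP-1 consensus had the widest gap in percentage points between members and shared peaks among the searched sequences. It was present in 13.4% of members (13.0 to 13.8), 25.7% of shared peaks (25.4 to 25.9), 14.6% of weak WT-only peaks and 53.5% of strong TCKO-only peaks, and in 22.4% of all autosomal WT intervals. At matched strength the gap remained, at 14.4% of members and 30.3% of shared peaks for a −log10 q of 5 to 7, 13.0% and 28.4% for 7 to 10, 11.5% and 26.2% for 10 to 15, and 9.43% and 25.1% for 15 to 20. Among members it was rarer where the TCKO count was lower, in 7.57% of those at least 2-fold lower and 14.6% of the others.

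The Runt consensus differed less. It was found in 10.2% of members (9.78 to 10.6) and 8.47% of shared peaks (8.31 to 8.63). The share was 9.08% in weak WT-only peaks, 8.31% in strong TCKO-only peaks and 8.86% in all autosomal WT intervals. In the 4 strength classes it was in 9.86%, 10.6%, 10.4% and 10.1% of members and in 8.94%, 9.13%, 9.17% and 8.70% of shared peaks, with overlapping intervals at 5 to 7, 10 to 15 and 15 to 20. Searching whole intervals reversed this order, with 12.2% of members and 15.4% of the much wider shared peaks. Counted jointly with AP-1, peaks with Runt but no AP-1 match were members in 21.9% of cases (21.1 to 22.7), peaks with neither in 18.4% (18.2 to 18.6), peaks with AP-1 but no Runt match in 9.30% (8.97 to 9.63), and peaks with both in 9.85% (8.79 to 11.02). At a −log10 q of 10 to 15 these shares were 15.5%, 14.0%, 5.69% and 6.02%. So among strong WT peaks the presence of AP-1 went with an overlapping TCKO call. That of Runt did not, as without AP-1 it went with a somewhat higher share of members. Within the 4 strength classes the intervals of Runt alone and neither were apart only at 7 to 10 (35.2% and 31.6%). AP-1 was not particular to peaks called in both genotypes, as 53.5% of strong TCKO-only peaks had it.

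CTCF matches stood in 6.33% of members, 5.83% of shared peaks and 4.80% of all autosomal WT intervals. In weak WT-only peaks the share was 3.16% and in strong TCKO-only peaks 1.63%. The members that had a match were unlike the rest of the members. They were narrow, with a median width of 134 bp, had a median ratio of −0.25, and 3.94% of them were at least 2-fold lower. Accordingly CTCF was in 1.41% of the members at least 2-fold lower and in 7.39% of the others. The difference between members and shared peaks depended on width. Among intervals of 150 to 300 bp the shares were 4.52% and 10.1%, the reverse order. The SP/KLF consensus was in 5.91% of members and 10.6% of shared peaks, but in 5.21% and 5.19% of those away from promoters and in 5.78% and 5.80% at a −log10 q of 5 to 7. The cAMP response element was in 57 members (0.2497%) and 0.511% of shared peaks. Of all autosomal WT intervals, 7.82% had an SP/KLF match and 0.414% a cAMP response element. TEAD (15.9% and 16.3%), E-box (16.4% and 15.6%), NFY (23.3% and 22.5%), SOX (14.0% and 14.1%), homeobox (2.60% and 2.32%) and ETS (3.02% and 4.41%) were within 1.5 times of each other in members and shared peaks, and of the 16.2%, 15.8%, 23.1%, 14.4%, 2.45% and 3.54% of all autosomal WT intervals. The NFI palindrome was found in 9 members (0.0394%), 0.0372% of shared peaks and 0.0355% of all.

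**Figure D4:**
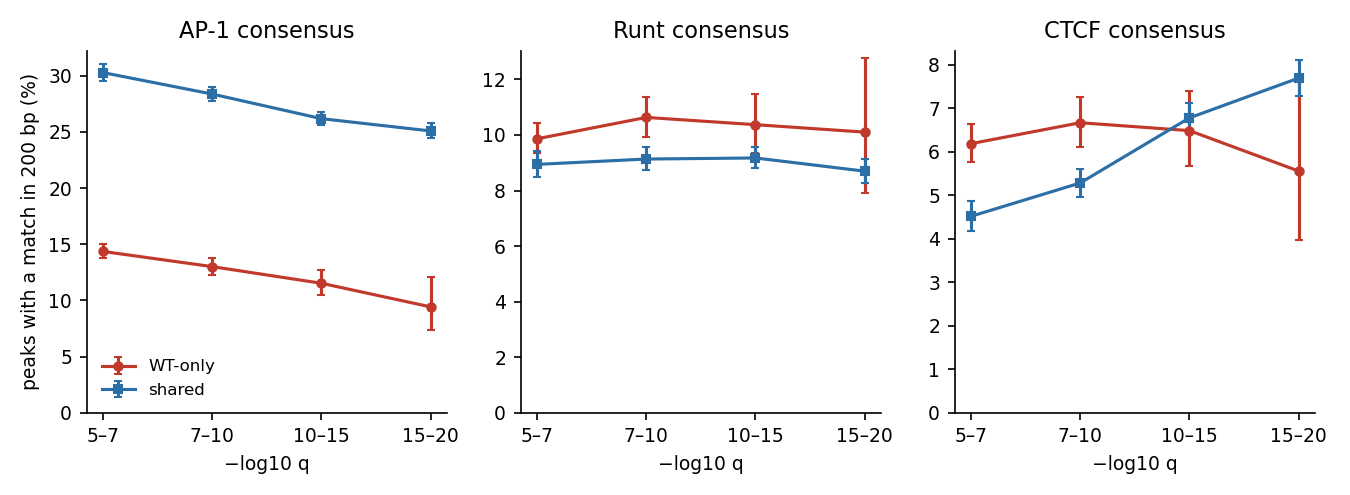
Percentage of members (circles) and shared peaks (squares) with an AP-1, Runt or CTCF match in the central 200 bp, in 4 classes of WT −log10 q, with 95% Wilson intervals. AP-1 is in 9.43% to 14.4% of members and 25.1% to 30.3% of shared peaks, Runt shares lie close together, and the CTCF lines cross.

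CpG content, the substrate of TET enzymes, went with membership in a curve. The mean was 2.91 CpG per central 200 bp in members and 4.38 in shared peaks, since only 2.25% of members but 11.6% of shared peaks had 10 or more. A low mean was not particular to the members. Weak WT-only peaks had a mean of 2.65, with 2.34% at 10 or more, and strong TCKO-only peaks 1.70, with 0.545%. Away from promoters and at a −log10 q of 5 to 10, members were 31.3% (30.3 to 32.3) of peaks with no CpG, 35.5% (34.8 to 36.1) with 1 to 2, 41.3% (40.5 to 42.1) with 3 to 5, 46.1% (44.5 to 47.8) with 6 to 9 and 30.4% (27.3 to 33.7) with 10 or more. At 10 to 20 the shares were 6.71%, 8.21%, 10.98%, 13.3% and 5.38%. The ratio of distal members followed the same course, with medians of −0.38, −0.47, −0.58, −0.65 and −0.42, and 11.9%, 15.6%, 21.4%, 26.3% and 15.5% of them were at least 2-fold lower. The shared distal peaks moved too, from a median of 0.26 without CpG to −0.09 with 6 to 9 and −0.03 with 10 or more. The part that base composition of the libraries plays in this was not tested.

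**Figure D5:**
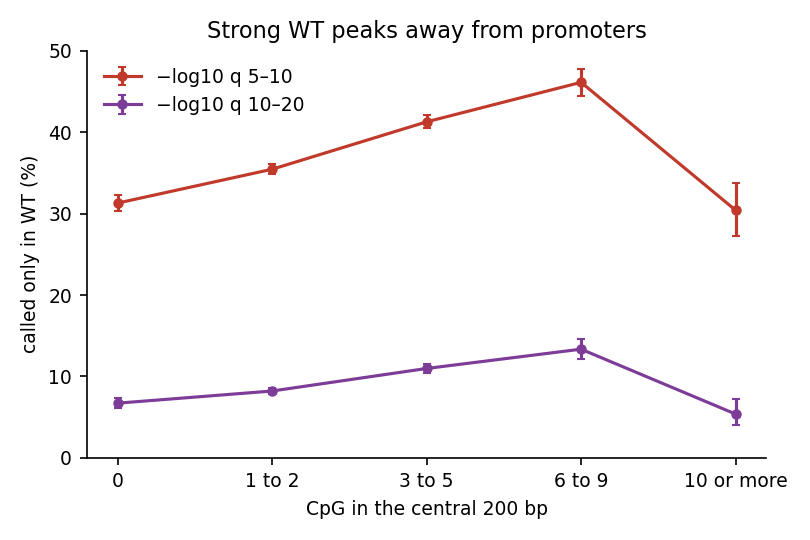
Percentage of strong WT peaks away from promoters that were members, by the number of CpG in the central 200 bp, at a −log10 q of 5 to 10 and of 10 to 20, with 95% Wilson intervals. Both lines climb from 0 to 6 to 9 CpG (31.3% to 46.1% and 6.71% to 13.3%) and drop at 10 or more.

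Members were spread over the genome. Their share of the strong peaks ranged from 15.6% on chromosome 7 to 17.3% on chromosome 17. Of 1943 windows of 1 Mb with at least 20 strong peaks, the median share was 16.1%, and 5% lay below 7.69% and 5% above 25.4%. The highest was 16 of 41 at chr10:105000001-106000000, which holds Tmtc2, followed by 18 of 50 on chromosome 9 at the synaptic gene Clstn2 and at Spsb4, 18 of 51 in a gene desert of chromosome 3, 20 of 59 at chr10:22000001-23000000, which overlaps the chromosome 10 region above and reaches past it, and 11 of 34 on chromosome 11 at Bcl11a, a zinc finger repressor. Most members stood alone between shared peaks, as 15604 of them had no member as the next strong peak on either side, and the longest run was 7 in a row, inside and beside the chromosome 10 region.

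Among genes, those with most members were long. Gm20388, with 87 members of 551 strong peaks, Fgfr2 with 63 of 288 and Gm37240 with 26 of 97 have annotated spans that overlap 73, 30 and 7 other protein-coding genes, so these counts do not belong to one gene. Wwox, an oxidoreductase and tumour suppressor, had 26 members of 78 (33.3%, 23.9 to 44.4; median ratio −0.80), and the homeobox factor Zfhx3 had 23 of 85 with a median of −0.79. Foxp1, a forkhead repressor of limb and bone, had 22 of 80 at −0.62, and the synaptic scaffold Dlg2 22 of 76 at −0.52. Gpc6, a glypican, had 21 of 74 at −0.69, the secreted guidance ligand Slit3 21 of 72 at −0.76, and Arhgap26 18 of 52 at −0.53. Their shares, from 27.1% to 34.6%, compare with a median of 17.2% over the 2128 genes with at least 10 strong peaks. The genes named so far were picked for their many members, and none exceeded 35.1%, above which 5% of the 2128 genes lay. The spans of Foxp1 and Arhgap26 overlap 1 and 2 other protein-coding genes, and the 3 Fgf1 members given below also lie in the Arhgap26 span. By share the order opened with Fstl4, a follistatin-like gene, at 10 of 18 and the endocytosis gene Eps15l1 at 6 of 11. Shq1 and Slc41a2 had 6 of 12 each, and Cacna1i, Cldn14, Fbxo34, Gng2, Pax5 and Pdpn 5 of 10 each. With so few peaks the intervals are wide, 33.7% to 75.4% for Fstl4. The members at Pdpn (podoplanin, an early osteocyte marker) had a median ratio of −1.01, and those at Pax5, a B cell factor, 0.13.

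For the gene lists, a locus was the annotated gene with 2 kb before its start, and over all protein-coding loci 16.0% of strong peaks were members, with a median ratio of −0.50 and 17.8% at least 2-fold lower. BMP and TGF-β pathway genes had 80 members of 329 strong peaks (24.3%, 19.99 to 29.2), with a median of −0.67 and 25 at least 2-fold lower. The latent TGF-β binding protein gene Ltbp1 led with 17 of 49. Its lowest member, an intronic one at chr17:75018039-75018665, held 267 WT and 44 TCKO counts. The inhibitory Smad6 had 6 of 17 with a median of −1.03, and its 6 members held 208 and 49, 276 and 79, 157 and 46, 124 and 37, 220 and 73, and 210 and 91 WT and TCKO counts. The signal transducer Smad3 had 6 of 24 with a median of −0.93, and the receptors Bmpr1b, Acvr1, Bmpr1a, Tgfbr2, Tgfbr3 and Bmpr2 had 7 of 25, 5 of 23, 4 of 13, 4 of 14, 4 of 28 and 3 of 11. Ltbp2 had 5 of 19 and the ligand Bmp6 3 of 13. At Inhba, which encodes the activin subunit, 3 of 5 peaks were members, but their median ratio was 0.05. The 3 Inhba members held 51 and 19, 100 and 63, and 101 and 80 counts. Every member of Smad6 thus had fewer TCKO counts after scaling, as did 1 of the 3 at Inhba.

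Chondrocyte genes had 38 members of 166 (22.9%, 17.2 to 29.9), of which Sox5 and Sox6, partners of SOX9 in cartilage, held 16 of 60 and 12 of 50, and Col9a1 4 of 14 with a median of −1.09. Wnt pathway genes had 58 of 305 (19.02%, 15.01 to 23.8) with a median of −0.69. The co-receptors Lrp5 and Lrp6 had 7 of 19 and 6 of 21, the nuclear effectors Tcf7l1 and Tcf7l2 8 of 30 and 6 of 29, and the receptor Ror2, the feedback gene Nkd1 and the ligand Rspo2 7 of 27, 3 of 11 and 3 of 13. Limb and craniofacial transcription factors had 79 of 374 (21.1%, 17.3 to 25.5). Foxp1 and Zfhx3, given above, supplied 22 and 23 of these, Foxp2 4 of 31, and Tbx15 and Zfhx4 3 each. The FGF list had 80 of 369 (21.7%, 17.8 to 26.2), of which 63 came from the Fgfr2 span. Without it, a choice made after seeing the data, the share was 17 of 81 (21.0%, 13.5 to 31.1), an interval that includes the share of all loci. Fgf2 had 5 of 12, Fgf10 3 of 10 and Fgf1 3 of 12.

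Osteoblast and RUNX2 target genes had 33 of 187 (17.6%, 12.9 to 23.7), a share near that of all loci, with a median of −0.73 and 11 at least 2-fold lower. Col5a1 and Col5a2, minor fibrillar collagens of bone, had 6 of 19 and 5 of 17 with a median of −0.87 in each, and Smpd3, a sphingomyelinase needed for mineralisation, 3 of 9. Adipocyte genes had 25 of 148 (16.9%), endothelial genes 16 of 91 (17.6%), skeletal muscle genes 9 of 46 (19.6%), macrophage and osteoclast genes 12 of 75 (16.0%), AP-1 factor genes 3 of 27 (11.1%) and Hox genes 2 of 32 (6.25%). Among the adipocyte genes Ebf1 had 11 of 47, Zfp423 8 of 41 and Ebf2 5 of 21. In the other lists Erg had 9 of 30 with a median of −0.95, Flt1 4 of 14, Nfatc1 5 of 22, and Itgb3 and Ryr1 3 each. Neuronal genes had 60 of 455 (13.2%, 10.4 to 16.6) with a median of −0.38 and 6 at least 2-fold lower. Rbfox1 had 8 of 57, Rbfox3 6 of 27, Nrxn3 6 of 39, Cntnap2 5 of 46, Csmd1 5 of 25, Syt1 4 of 24, and Cacna1a, Gria1, Kcnq3, Grin2a and Dlgap1 3 each. Apart from BMP and TGF-β, chondrocyte, FGF and limb factor genes, the interval of every list included the 16.0% of all loci. These intervals treat the peaks of one gene as independent. Foxp1 (22 of 80) and Zfhx3 (23 of 85) supplied most of the 79 members of the limb factor list. Sox5 (16 of 60) and Sox6 (12 of 50) supplied most of the 38 chondrocyte members. Shares of these lists without those genes were not computed. The lists were assembled with earlier results of these data known, and a median of a list is no test of it.

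Among the genes the study followed, Tet2 had the highest share, 4 of 6 strong peaks, all in introns and all at least 2-fold lower. They held 71 WT and 7 TCKO counts at chr3:133468865-133469160, 76 and 18 at chr3:133517524-133517708, 161 and 31 at chr3:133520976-133521306, and 252 and 62 at chr3:133540045-133540353. The lowest, at a log2 ratio of −2.53 (−3.72 to −1.53), was 7557 bp from a Tet2 start. Tet3 had 2 of 12, with 158 and 39 and with 93 and 37 counts, and Tet1 0 of 9. Whether any of these windows lies in a floxed segment was not tested, since its coordinates were not used here. With the other genes of the DNA methylation list 8 of 54 peaks were members (14.8%), 5 of them at least 2-fold lower.

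Runx2 itself had 5 intronic members of 39 strong peaks (12.8%), with 162 WT and 39 TCKO counts in the lowest of them (chr17:44614114-44614397, log2 ratio −1.32, −1.84 to −0.84), and 90 and 30, 96 and 33, 47 and 17, and 100 and 50 in the others. Alpl, the alkaline phosphatase of mineralisation, had 3 of 11 with 224 and 88, 83 and 41, and 42 and 17 counts. The type I collagen genes had 2 of 8 for Col1a2 (173 and 50, 235 and 69, the latter with a Runt match) and 1 of 4 for Col1a1 (317 and 146). Fgf7, a growth factor of mesenchyme, had 1 of 5 with 120 and 29 counts, and Cys1 1 of 4 at its promoter with 181 and 71. Ctsk (2 strong peaks), Clec11a (2), Mmp13 (1) and Sp7 (3) had no member. This does not mean equal counts, as the log2 ratios over these loci were −0.87, −0.40, −0.34 and −0.27. Bglap, the osteocalcin gene, had no strong WT peak in its locus and Col10a1 no row at all. The members at these genes all held fewer TCKO than WT reads, and after scaling their log2 ratios ran from −2.53 to −0.28.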

How the data were processed

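Primary osteoblasts of 2 genotypes were profiled by ATAC-seq. Per the labels and the methods, the authors aligned reads to GRCm38 with STAR 2.7.0e, keeping uniquely mapping reads, called peaks with MACS2 and merged the repeats of a genotype; treatment of duplicate reads is not given in the sources used here. The deposited count table holds 1 count column per genotype, and the deposited peak lists hold a fold enrichment (ratio), −log10 p and −log10 q values and an integer score for each summit. Summits of 1 interval were merged and the highest q kept. The interval had to share 1 bp to overlap (bedtools 2.31.1), and each member took the count of the row it overlaps; 14 of 22831 members lay in a wider row. Counts were scaled by their totals. TMM (edgeR 4.0.16) and DESeq2 1.42.0 size factors were alternatives. So was the lowest MACS2 background, solved from fold and p and divided by the shortest interval. Pileup, scaling and overlap steps were tested on simulated data. Ratio and share intervals are 95% Wilson intervals, which cover counting error only, as reads without molecular identifiers are not independent. Genes came from GENCODE protein-coding models, promoters within 1 kb, and sequences from the RefSeq GRCm38 assembly. With 1 merged column per genotype no count model was fitted. Named regions were the 10 members with the highest q, the 10 lowest and 5 highest ratios with at least 200 WT counts, and named genes those of the lists with at least 3 members, the genes of the study, the 10 with most members and the 10 with the highest share among at least 10 strong peaks; the 5 windows with the highest share were also named. The Ltbp1 member with the lowest ratio and 2 promoters of the chromosome 10 region were picked after their values were seen. The members and lists were chosen with earlier results of these data known. Some genes and 1 sequence that this choice would name are not reported here.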

Additional observations from a re-analysis of the deposited data

How the results depend on the processing

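The number of members followed the thresholds: 52453 with a −log10 q of at least 3, 3938 with 10 and 152 with 20, 39420 when under 50% of the WT interval had to be covered, and 49230 against strong TCKO intervals alone. It was 22667 and 17936 when TCKO intervals within 100 bp or 1 kb counted as overlap, and 22831 with lists of equal length, which by construction drop weak WT intervals alone. The median log2 ratio was −0.57 with TMM, −0.56 with DESeq2, −1.20 without scaling, −1.10 with the peak caller background and −0.44 with 10 counts added. Members at least 2-fold lower numbered 15359 without scaling, 13201 with the background, 9914 and 681 at cutoffs of 1.5-fold and 3-fold, and 734 with the interval wholly below it. Other scalings and filters gave 2835 to 4845. Promoters were 3.63% of members with a −log10 q of at least 10, and 7.51% within 2 kb. AP-1 shares of members were 11.2% at that score, 15.4% in whole intervals and 14.7% at widths of 150 to 300 bp, against 24.3%, 38.0% and 34.4% of shared peaks. Runt shares were 12.2% in whole intervals and 10.6% at those widths (shared 15.4% and 9.72%), and CTCF shares 6.69% and 4.52% (shared 8.05% and 10.1%). The order of members and shared peaks was thus kept for AP-1 under these alternatives, and it turned for Runt in whole intervals and for CTCF in both. With flanks of 25 kb no gene list left the interval of its share. No paired analysis was possible because the deposited columns are merged over replicates, and leaving out a replicate was not run for the same reason. Calls went with the count: at 20 to 30 TCKO counts, where 22.3% of them lie, a TCKO peak was called in 20.4% of autosomal rows, and no subsampling to equal depth was run.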

Other observations

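Outside chromosomes 1 to 19 the same rule would have kept 467 of 2924 strong WT peaks on the X chromosome (16.0%, 95% Wilson interval 14.7 to 17.3), with median counts of 67 in WT and 28 in TCKO and a median log2 ratio of −0.57, and 1 of 14 on the Y chromosome.

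Members also followed each other where the reads did not differ much. Runs of 6 members in a row lay in an intergenic part of chromosome 17 (chr17:15115248-15242651) with a median log2 ratio of 0.02 and at Csmd2 on chromosome 4 with −0.09, whereas the runs of 6 at Ccdc190 and Hsd17b7 and at Ksr1 had medians of −0.72 and −0.53. In all 87 runs held 4 members, 13 held 5, 4 held 6 and 1 held 7.

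Members at least 2-fold lower were wider than the others (median 267 against 188 bp), more often had several summits (25.3% against 12.6%) and had less of their central 200 bp in soft-masked repeats (mean 10.7% against 15.6%).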
